A study of Mus musculus with 6 samples.

Results

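The genes that move salt, water and short-chain acids across the colonic epithelium were followed in mouse colonic organoids with and without induced deletion of both atypical protein kinases C. The set held 42 genes listed by symbol, from chloride channels to monocarboxylate carriers, and 41 of them had a row among the 25067 rows of the expression table. Kcnj16 was not analysed here. Of the 41, 35 reached a mean of 10 normalized counts over the 6 libraries and were tested, and 6 stayed below it.

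The organoids were grown from colonic crypts of C57BL/6 mice, 8 weeks old, with the genotype Prkcif/fPrkczf/f;Villin-CreERT2. In these mice the Villin promoter drives a tamoxifen-inducible Cre in the intestinal epithelium, and Cre removes the floxed parts of Prkci and Prkcz, which encode the atypical kinases PKC lambda/iota and PKC zeta. At passage, 3 days before harvest, 3 samples received ethanol (vehicle) and 3 received 4-OH tamoxifen (4-OHT), so both groups carried the floxed alleles and the transgene and both grew in Advanced DMEM/F12 medium supplemented with B27, WNT3A, EGF, Noggin and R-spondin. No library of the series received 4-OHT without floxed genes, so loss of the kinases, Cre activity and 4-OHT itself cannot be told apart. The labels do not say whether the samples of a group came from separate mice or cultures, and the p-values then measure only the spread between these libraries, which may be technical. Because these are bulk samples, fewer cells of one type and less RNA per cell cannot be told apart either.

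The colonic epithelium absorbs sodium, chloride, water and the short-chain fatty acids made by bacteria, and it secretes chloride and bicarbonate when stimulated. Absorption runs mainly through surface colonocytes, by paired sodium-proton and chloride-bicarbonate exchange, by the epithelial sodium channel (ENaC) and by monocarboxylate carriers. Secretion runs mainly through crypt cells: the basolateral cotransporter NKCC1 loads chloride, potassium channels hold the driving force, and chloride leaves through CFTR and calcium-activated channels. The sodium-potassium pump powers both directions.

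The libraries held 15804709 to 26957612 reads, and 1 read was worth 0.709 to 1.21 normalized counts. Prkcz was lower in 4-OHT (log2 fold change -1.70, SE 0.08, limma adjusted p = 3.2e-12), as was Prkci (-0.22, SE 0.05, adjusted p = 0.00081), with all 3 4-OHT libraries below all 3 vehicle libraries for both. The table counts whole genes, so reads outside a deleted part would still be counted. All 7 epithelial markers were detected. Their summed level was 20895 to 21512 RPM (reads scaled to the library total) in vehicle and 26373 to 27777 in 4-OHT. Of the 7, 6 rose and 1, Cdx2, fell (log2 fold change -0.26, limma adjusted p = 6.9e-05). Krt8 (mean 135633 normalized counts in vehicle, 196658 in 4-OHT) and Krt19 (135781 and 188153) were the highest of the 7 and weigh most in the sum. The 5 crypt base stem cell markers summed to 603 to 619 RPM in vehicle and 382 to 420 in 4-OHT, and each of the 5 fell. The 5 markers of proliferating cells also all fell, from sums of 1396 to 1470 to sums of 716 to 816. Of the 5 mature colonocyte markers 3 rose and none fell, with sums of 953 to 1063 and 1123 to 1223. Their part in the changes described here was not tested. Libraries 2 and 3 of 4-OHT stood apart from the other 4. The 3 plasma cell markers summed to 204 and 62 reads there against 0 or 1 read elsewhere, and the 5 smooth muscle markers summed to 59 and 140 reads against 1 to 8. The 6 fibroblast markers summed to 171 reads in 4-OHT replicate 3 and to 6 to 22 in the others. The 8 markers of Paneth cells and ileum summed to 71.7 and 64.4 RPM there against 40.2 to 56.6 elsewhere. Of these 8, 4 rose (Defa21, Defa22, Defa24 and Fabp6), each with 21 to 176 reads in those libraries and at most 6 in any other, while Mmp7 fell and 3 did not pass. For this reason the 4-OHT replicate 1, compared alone with vehicle on the assumption that it varies like the other libraries, is given beside the larger changes.

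Among the 35 tested transport genes, 11 rose and 11 fell in 4-OHT at a limma adjusted p under 0.05, which is 62.9% called. Of all 13210 rows tested, 43.6% were called, 22.7% higher and 21.0% lower. Calls depend on expression level, and among rows with a mean of at least 100 normalized counts 50.5% were called, against 21 of the 30 transport genes that reached that mean. The 3 4-OHT libraries lay wholly above the vehicle libraries for 12 transport genes and wholly below for 9, where 26.8% of all rows lay above, 25.3% below and 52.1% either way. Most shifts were small. Only 4 genes rose and 3 fell by at least 0.5 on the log2 scale, where 6.68% of all rows rose, 7.51% fell and 14.2% moved either way by that much. The 4 that rose were Slc5a8, Slc9a2, Fxyd3 and Sgk1, and the 3 that fell were Aqp4, Aqp1 and Nr3c2. The median log2 fold change of the 35 genes was 0.04, beside -0.01 for all rows.

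**Figure D1:**
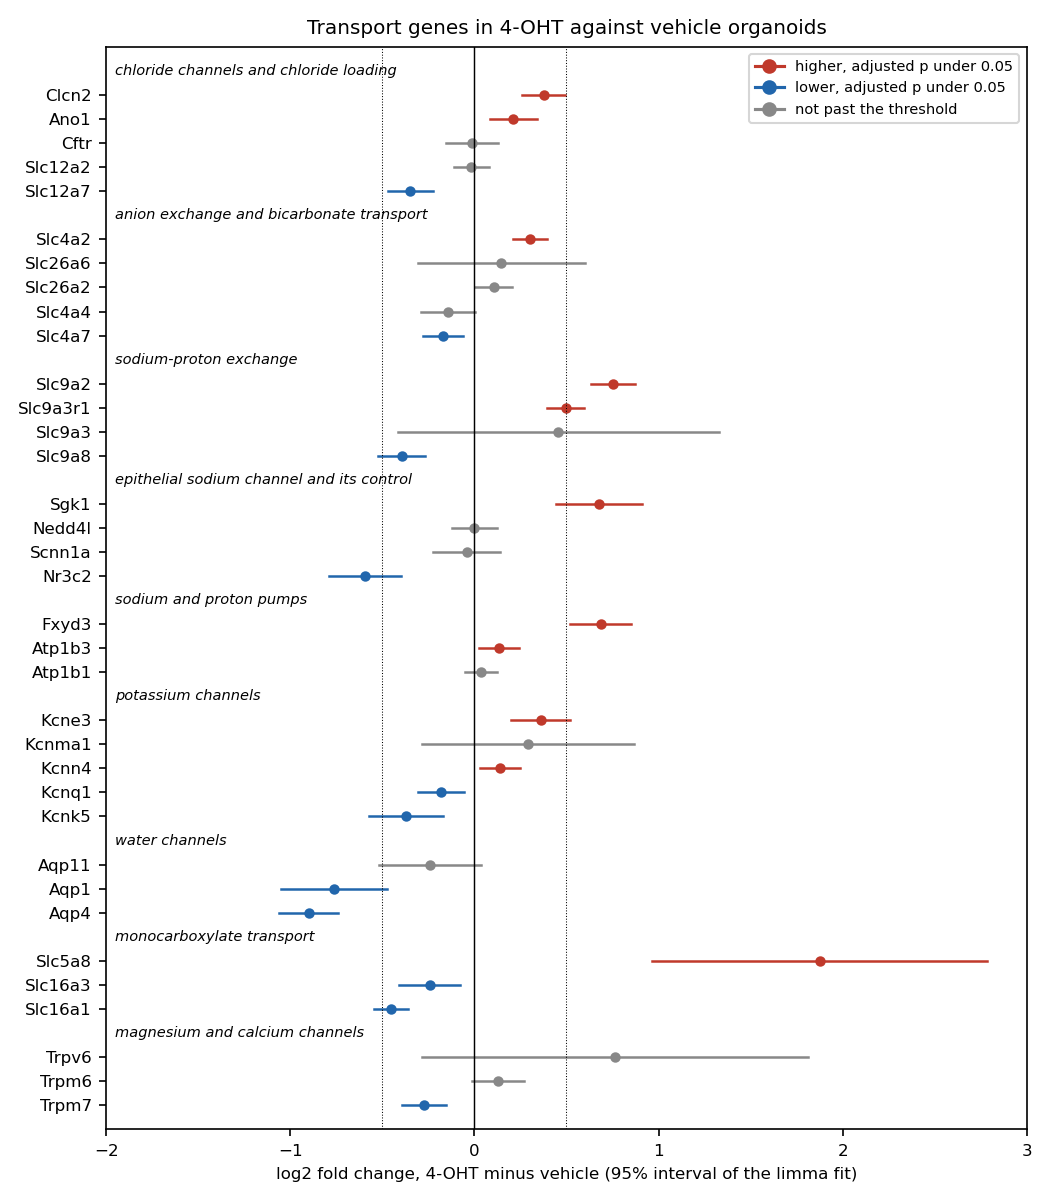
Log2 fold change (4-OHT minus vehicle) of the 35 tested transport genes, ordered by role, with the 95% interval of the limma fit. Red points rose and blue points fell at an adjusted p under 0.05, grey points did not pass it, and dotted lines mark 0.5 in each direction. Slc5a8 lies farthest to the right at 1.88 and Aqp4 farthest to the left at -0.90.

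Per kilobase of exon, a scale that sets genes beside each other only roughly, the tested transport genes covered a wide range. The length joins all annotated exons of a gene, whether or not they are used in these organoids. A gene with a long joined length, such as Kcnma1 at 17.0 kb, can therefore come out too low. In vehicle the highest was Slc9a3r1 at 2780 normalized counts per kb, followed by Atp1b1 at 2616, Slc16a3 at 1422 and Slc12a2 at 1178. Slc9a3r1 encodes NHERF1, a scaffold that holds CFTR and sodium-proton exchangers at the apical membrane, Atp1b1 a subunit of the sodium-potassium pump, Slc16a3 the lactate carrier MCT4 and Slc12a2 NKCC1. The lowest vehicle library was at 2713 per kb for Slc9a3r1 and the highest at 2661 for Atp1b1. The order of these genes also rests on the exon lengths used, whose error the spread between libraries does not show. Exons of a gene on the other strand cover 18.7% of the exon bases of Atp1b1. At the other end of the tested genes were Slc9a3 at 5.48 per kb in vehicle, Slc5a8 at 2.23, Trpv6 at 1.96 and Kcnma1 at 1.61. These 4 are transporters and channels of surface colonocytes or of absorptive epithelia, and their low levels limit what could be tested on them.

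**Figure D2:**
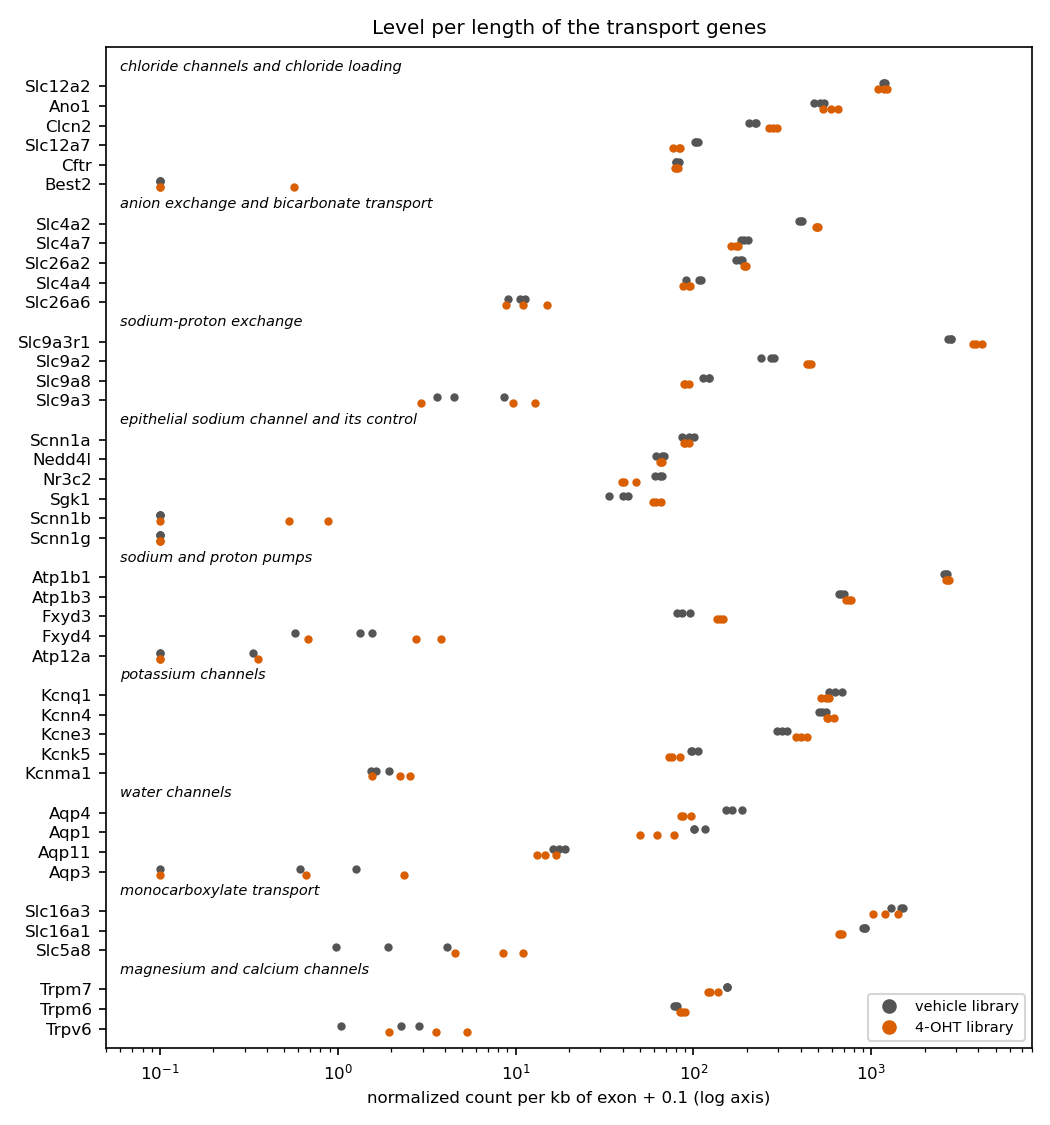
Normalized count per kilobase of exon, plus 0.1, on a log axis, for the 41 transport genes with a row, ordered by role, with 1 point per library in vehicle and 4-OHT. Slc9a3r1 and Atp1b1 sit at the top of the scale, and the 6 genes below the filter, among them the ENaC subunit genes Scnn1b and Scnn1g, sit at its floor.

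The 6 untested genes were close to absent at this depth. Scnn1g, a subunit gene of ENaC, had 0 reads in all 6 libraries, which allows up to 3 reads in each, and Scnn1b, another subunit gene, had 0, 0 and 0 reads in vehicle and 0, 2 and 1 in 4-OHT. Best2, an anion channel of colonic goblet cells, had 1 read in 1 4-OHT library and 0 in the other 5. Atp12a, the colonic proton-potassium pump, had 1, 0 and 0 reads in vehicle and the same in 4-OHT. The last pair were a little higher: Fxyd4, a pump regulator known from the distal colon and the kidney, had 1, 4 and 2 reads in vehicle and 5, 7 and 1 in 4-OHT, and Aqp3, a basolateral water and glycerol channel, had 1, 3 and 0 against 4, 1 and 0. With at most 7 reads in any library, none of the 6 was tested.

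Of the 5 tested genes of chloride channels and chloride loading, 2 rose, 1 fell and 2 did not pass the test. Cftr, the cyclic AMP-regulated apical chloride and bicarbonate channel, was at 617, 641 and 621 normalized counts in vehicle and at 632, 621 and 607 in 4-OHT. The groups overlapped, and the log2 fold change was -0.01 with a 95% interval of -0.15 to 0.13 (adjusted p = 0.88). Slc12a2, which loads chloride from the blood side, was also close between groups, at 12860 ± 185 in vehicle and 12724 ± 741 in 4-OHT (SD, n = 3), a log2 fold change of -0.02 with an interval of -0.11 to 0.08. Clcn2, a voltage-gated chloride channel of the basolateral membrane, showed the largest change of the group. Its values of 1328, 1237 and 1346 in vehicle all lay below those of 1773, 1609 and 1695 in 4-OHT, and it rose by 0.38 (SE 0.06, adjusted p = 2.0e-05). Ano1, a calcium-activated chloride channel, rose by 0.21 (SE 0.06, adjusted p = 0.0082), but its groups overlapped, and the call was lost without vehicle replicate 2 (adjusted p = 0.060) or without 4-OHT replicate 1 (0.055). Slc12a7, the potassium-chloride cotransporter KCC4 that carries chloride out, fell by 0.35 on the log2 scale (SE 0.06, adjusted p = 6.5e-05), from 1309 ± 24.4 to 1028 ± 55.3 (SD, n = 3).

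Among the 5 anion exchangers and bicarbonate transporters, 1 rose, 1 fell and 3 did not pass. Slc4a2, the basolateral chloride-bicarbonate exchanger AE2, was at 3360, 3279 and 3385 normalized counts in vehicle and at 4089, 4154 and 4118 in 4-OHT. The groups lay well apart, and the rise was 0.30 (SE 0.04, adjusted p = 1.1e-05). Exons of a gene on the other strand cover 14.9% of its exon bases, and whether counting used strand is not given in the sources used here. Slc4a7, a sodium-bicarbonate cotransporter that brings base into the cell, fell by 0.17 on the log2 scale (SE 0.05, adjusted p = 0.011), a call lost without vehicle replicate 2 (adjusted p = 0.080) or without 4-OHT replicate 2 (0.053) and in replicate 1 alone (0.24). Slc4a4, the electrogenic member of the same family, had a log2 fold change of -0.15 (SE 0.07, adjusted p = 0.10) and passed the test only when vehicle replicate 3 was left out (-0.23, adjusted p = 0.0099). Slc26a2, a sulphate transporter abundant in colonocytes, had the smallest difference of the group, 0.11 (SE 0.05, adjusted p = 0.083), with 2152, 2261 and 2303 in vehicle and 2426, 2404 and 2393 in 4-OHT. Its 4-OHT libraries were all higher even so. Slc26a6, an apical anion exchanger, was at 55.3 ± 6.14 and 62.5 ± 16.9 (SD, n = 3) with an interval of -0.31 to 0.60.

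The sodium-proton exchangers moved in different directions. Slc9a2 encodes NHE2, an apical exchanger, and was at 1898, 1980 and 1674 normalized counts in vehicle against 3025, 3210 and 3112 in 4-OHT. Every 4-OHT library was far above every vehicle library, a 1.68-fold difference (log2 fold change 0.75, SE 0.06, adjusted p = 3.4e-09), and replicate 1 alone gave 0.71. Slc9a8, which encodes NHE8, an exchanger of the Golgi and of the apical membrane in immature epithelium, moved the other way, from 1109, 1026 and 1110 to 853, 810 and 805, and fell by 0.39 on the log2 scale (SE 0.06, adjusted p = 2.8e-05). Slc9a3, which encodes NHE3, the main absorptive exchanger of the gut surface, was low and uneven, at 24.3, 46.8 and 19.4 in vehicle and 52.7, 15.5 and 70.6 in 4-OHT. Its groups overlapped because 4-OHT replicate 2 was the lowest of the 6 libraries, and the interval ran from -0.41 to 1.33. Without that library the log2 fold change was 1.09 (adjusted p = 0.014). The scaffold gene Slc9a3r1 was at 5427, 5222 and 5404 in vehicle and 7476, 8057 and 7133 in 4-OHT, a 1.41-fold rise (log2 fold change 0.50, SE 0.05, adjusted p = 6.7e-08) that fell just short of the 0.5 limit before rounding. Per kilobase, NHE2 made up 68.0% ± 2.21 of the summed level of the 3 exchangers in vehicle and 81.9% ± 1.35 in 4-OHT (SD, n = 3), and NHE8 30.6% ± 2.77 and 16.6% ± 0.77, given as a description.

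**Figure D3:**
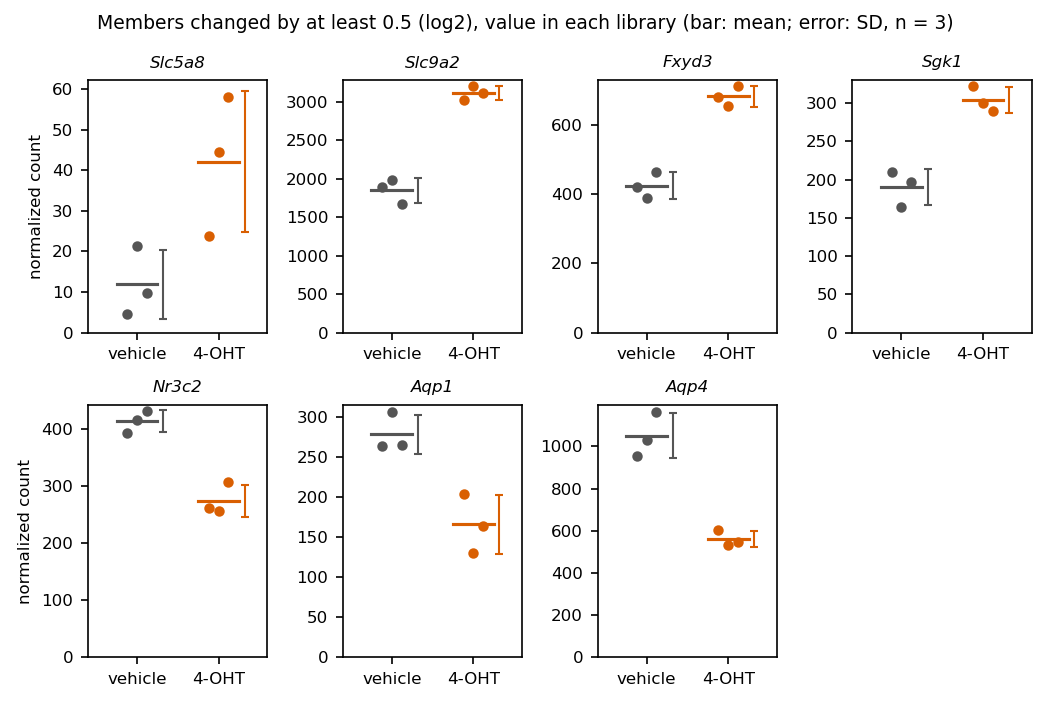
Normalized count in each library of the 7 transport genes that changed by at least 0.5 on the log2 scale, with the mean (bar) and SD (error, n = 3) of vehicle and 4-OHT. The groups do not overlap for any of the 7, and 4-OHT replicate 1 is the lowest 4-OHT library for Slc5a8 and the highest for Aqp1 and Aqp4.

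ENaC is built from subunits encoded by Scnn1a, Scnn1b and Scnn1g, and corticosteroid hormones raise its activity. Aldosterone binds the mineralocorticoid receptor, the product of Nr3c2, which induces the kinase gene Sgk1, and SGK1 restrains NEDD4L, the ubiquitin ligase that removes the channel from the membrane. Of these genes 4 were tested: Sgk1 rose, Nr3c2 fell, and Scnn1a and Nedd4l did not pass the test. Sgk1 was at 210, 165 and 197 normalized counts in vehicle and at 322, 300 and 290 in 4-OHT, so that the lowest 4-OHT library was well above the highest vehicle library. The rise was 0.68 on the log2 scale (SE 0.11, adjusted p = 5.3e-05), and replicate 1 alone gave 0.76 (adjusted p = 0.0015). The receptor gene Nr3c2 moved the opposite way, from 394, 417 and 432 to 261, 256 and 307. Its groups did not overlap, its level in 4-OHT was 0.66 of that in vehicle (log2 fold change -0.59, SE 0.09, adjusted p = 3.8e-05), and replicate 1 alone gave -0.66. Of the ENaC and corticosteroid genes in the wider list below, 4 of 13 rose and 0 fell. That is 30.8% called, beside 43.6% of all rows tested, and the median log2 fold change of the 13 was -0.02. Tsc22d3 in that list had all its 4-OHT libraries below vehicle, without passing the test (log2 fold change -0.28, limma adjusted p = 0.062). Nr3c1 (-0.09) and Hsd11b2 (-0.04) did not pass either. Corticosteroid signalling itself was not tested.

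The channel and ligase genes stayed close between groups. Scnn1a was at 415, 358 and 389 in vehicle and at 389, 364 and 372 in 4-OHT, a log2 fold change of -0.04 with an interval of -0.22 to 0.14. It accounted for all of the ENaC subunit level per kilobase in vehicle and for 99.5% ± 0.44 in 4-OHT (SD, n = 3), since the other two subunit genes were at or near 0 reads. Nedd4l was at 1172, 1212 and 1091 against 1152, 1143 and 1176, and its interval of -0.12 to 0.12 was centred on 0.

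The promoters of Sgk1 and Nr3c2 are shown because corticosteroid receptors bind DNA as pairs at inverted repeats of the half-site AGAACA, whose other strand reads TGTTCT. Each sequence holds the 250 bases before a RefSeq transcript start of GRCm38.p6, 5′ to 3′ on the gene's strand. Capitals mark the half-site on either strand and the E-box, spelled CACGTG. For Sgk1 the window at chr10:21993640-21993889 (+ strand) was 1 of 6 in the table and is printed because it holds the most half-sites, while of the other 5 windows 2 hold 1 half-site each and 3 hold none, and for Nr3c2 the window is chr8:76902080-76902329 (+ strand).
Sgk1: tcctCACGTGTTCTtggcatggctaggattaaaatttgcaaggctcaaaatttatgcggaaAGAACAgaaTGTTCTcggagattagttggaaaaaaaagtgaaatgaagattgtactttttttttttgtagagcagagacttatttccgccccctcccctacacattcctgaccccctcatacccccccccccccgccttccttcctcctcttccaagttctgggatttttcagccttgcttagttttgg
Nr3c2: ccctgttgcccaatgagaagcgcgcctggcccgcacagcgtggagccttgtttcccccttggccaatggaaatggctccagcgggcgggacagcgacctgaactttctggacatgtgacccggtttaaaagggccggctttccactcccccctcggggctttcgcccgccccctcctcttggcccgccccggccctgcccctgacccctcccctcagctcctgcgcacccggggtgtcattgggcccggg
The Sgk1 window holds both orientations of the half-site 3 bases apart, an inverted repeat that begins 189 bases before the start, and a further half-site 242 bases before it that overlaps the E-box at 246. The Nr3c2 window holds none of these letters. Either strand was searched. The half-site letters occur in 16.1% of all 32851 promoter windows of that length and in 5 of the 42 windows of the transport genes. Those 5 windows belong to only 3 genes: Sgk1, with 3 of them, Slc16a3 and Trpv6. The repeat with any 3 bases between both orientations, looked for after the values were seen, occurs in 3 windows of the 32851. CACGTG is in 6.02% of all windows and in 7 of the 42, and the AP-1 letters TGANTCA are in 6.75% of all and in 1 of the 42. The 42 windows belong to 32 of the transport genes. A match is a description of the letters and not evidence of binding.

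The pump genes differed among themselves. Fxyd3, a small membrane protein that associates with the sodium-potassium pump and alters its activity, was at 419, 389 and 465 normalized counts in vehicle and at 680, 653 and 713 in 4-OHT. The groups were far apart, with a 1.61-fold rise (log2 fold change 0.69, SE 0.08, adjusted p = 8.2e-07) and 0.68 in replicate 1 alone. Exons of a gene on the other strand cover 42.5% of the exon bases of Fxyd3, and reads from the pair cannot be told apart if counting ignored strand. The beta subunit gene Atp1b1, at 7857, 8200 and 8122 against 8279, 8127 and 8379, had an interval of -0.05 to 0.12 around 0.04. Atp1b3, a second beta subunit gene, was at 1573, 1680 and 1611 in vehicle and 1831, 1792 and 1717 in 4-OHT. It rose by 0.13 (SE 0.05, adjusted p = 0.043), but 10 of 16 alternative analyses lost that call, with adjusted p-values up to 0.20.

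Potassium channels set the voltage that drives chloride secretion, and the 5 tested genes split into 2 that rose, 2 that fell and 1 that did not pass. Kcnq1 and Kcne3 encode the pore and the regulatory subunit of the basolateral cyclic AMP-activated channel. Kcne3 rose by 0.36 (SE 0.08, adjusted p = 0.00070), from 561 ± 37.9 to 721 ± 55.0 normalized counts (SD, n = 3), while Kcnq1 fell by 0.18 on the log2 scale (SE 0.06, adjusted p = 0.017), from 2573 ± 213 to 2265 ± 118. The Kcnq1 groups overlapped, and its call was lost without vehicle replicate 3 (adjusted p = 0.11) or without 4-OHT replicate 2 (0.079) and in replicate 1 alone (0.32). Kcnk5, a background potassium channel, had the largest change of the group. Its values were 361, 328 and 332 in vehicle and 285, 256 and 248 in 4-OHT, without overlap, and it fell by 0.37 on the log2 scale (SE 0.10, adjusted p = 0.0037), although replicate 1 alone gave -0.25 (adjusted p = 0.14). Kcnn4, the calcium-activated channel KCa3.1, had the smallest, from 2698, 2586 and 2838 to 2869, 2899 and 3170, a rise of 0.14 (SE 0.05, adjusted p = 0.038) that 6 of 16 alternatives lost, among them the fits without vehicle replicate 1 (0.092), vehicle replicate 2 (0.18) and 4-OHT replicate 3 (0.22). Kcnma1, the BK channel gene, was low, at 27.3 ± 3.73 and 34.2 ± 8.55, with an interval of -0.29 to 0.87.

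Of the 3 tested water channels 2 fell and none rose. Aqp4, a basolateral water channel of gut epithelium, was at 953, 1030 and 1165 normalized counts in vehicle and at 605, 531 and 546 in 4-OHT. No 4-OHT library came near the vehicle range, and the level was 0.53 of that in vehicle (log2 fold change -0.90, SE 0.08, adjusted p = 1.6e-08), with -0.79 in replicate 1 alone (adjusted p = 1.0e-05). Aqp1, a water channel of endothelium and of several epithelia, went from 264, 306 and 265 to 204, 131 and 164. The groups did not overlap, and the level was 0.60 of vehicle (log2 fold change -0.76, SE 0.14, adjusted p = 0.00014), but the 4-OHT libraries differed from one another and replicate 1 alone gave -0.45 (adjusted p = 0.025). Since Aqp1 is also an endothelial gene, the endothelial markers were set beside it. Of these, 4 of 5 had a row, and they summed to 2.09 to 2.86 RPM in vehicle and 1.66 to 2.61 in 4-OHT. Most of these reads were of 1 gene, Vwf, with 29 to 69 reads per library. Pecam1, Cdh5 and Kdr had at most 5 reads each in any library. Aqp11, an intracellular aquaporin, was at 152, 179 and 163 against 157, 123 and 138, a log2 fold change of -0.24 with an interval of -0.52 to 0.03 (adjusted p = 0.15).

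Of the 3 monocarboxylate carriers of the set 1 rose and 2 fell. Slc5a8 encodes SMCT1, the apical sodium-coupled carrier that absorbs butyrate and lactate, and it showed the largest rise of the set from a very low level. Its values were 4.66, 21.3 and 9.68 normalized counts in vehicle and 23.8, 44.6 and 58.1 in 4-OHT, where the lowest 4-OHT library was only just above the highest vehicle library. The rise was 3.55-fold by the group means (log2 fold change 1.88, SE 0.43, interval 0.97 to 2.78, adjusted p = 0.0016). It depended on the libraries compared, since replicate 1 alone gave 1.16 without passing the test (adjusted p = 0.19), and the pseudocount of 10 in place of 1 gave 1.27.

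The proton-coupled carriers Slc16a1 and Slc16a3 were far more abundant than Slc5a8, and both fell. Slc16a1 encodes MCT1, which carries butyrate and lactate across the cell membranes, and was at 4091, 4094 and 3964 in vehicle and 2913, 3020 and 2946 in 4-OHT. The libraries within each group were nearly level, and the difference was 0.73-fold (log2 fold change -0.45, SE 0.04, adjusted p = 9.0e-08), with -0.47 in replicate 1 alone. Slc16a3, the lactate exporter MCT4, was at 8009, 7837 and 6842 against 5438, 7507 and 6347, so the groups overlapped. It fell by 0.24 on the log2 scale (SE 0.08, adjusted p = 0.018), and the call was lost in DESeq2 (adjusted p = 0.21) and without any 1 of vehicle replicate 1 (0.087), vehicle replicate 2 (0.063), 4-OHT replicate 1 (0.13) or 4-OHT replicate 3 (0.0502). Despite its fold change, Slc5a8 supplied 0.10% of the summed level of the 3 carriers per kilobase in vehicle and 0.41% in 4-OHT.

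The promoter windows of Aqp1, Fxyd3 and Slc5a8, read in the same way, are printed as the sequence context of genes that changed by at least 0.5, and none holds the half-site, the E-box or the AP-1 letters, so they carry no capitals. They lie at chr6:55336049-55336298 (+ strand), chr7:31076698-31076947 (- strand) and chr10:88885742-88885991 (+ strand). The bases just after the Aqp1 start were not found in a GENCODE transcript of that gene, unlike those of the other printed windows. The Aqp1 start is therefore less certain. Windows for Slc9a2 and Aqp4 were not used here.
Aqp1: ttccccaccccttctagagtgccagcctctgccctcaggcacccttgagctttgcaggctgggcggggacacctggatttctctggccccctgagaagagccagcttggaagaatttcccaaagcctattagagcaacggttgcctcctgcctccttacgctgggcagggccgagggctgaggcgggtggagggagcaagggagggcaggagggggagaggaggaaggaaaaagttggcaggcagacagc
Fxyd3: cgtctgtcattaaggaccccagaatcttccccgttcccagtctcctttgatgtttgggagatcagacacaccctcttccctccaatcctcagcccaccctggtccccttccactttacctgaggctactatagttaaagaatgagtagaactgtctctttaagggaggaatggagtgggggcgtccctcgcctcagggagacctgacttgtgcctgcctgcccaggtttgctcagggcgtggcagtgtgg
Slc5a8: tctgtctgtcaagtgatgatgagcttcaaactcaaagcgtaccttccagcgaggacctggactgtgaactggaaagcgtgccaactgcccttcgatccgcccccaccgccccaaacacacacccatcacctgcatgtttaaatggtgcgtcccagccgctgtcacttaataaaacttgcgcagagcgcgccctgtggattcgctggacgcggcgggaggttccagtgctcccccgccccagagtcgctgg

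Of the 3 tested magnesium and calcium channel genes 1 fell and none rose. Trpm7, a ubiquitous magnesium-permeable channel fused to a kinase, fell by 0.28 on the log2 scale (SE 0.06, adjusted p = 0.00054), from 1741 ± 4.71 to 1441 ± 104 normalized counts (SD, n = 3), with -0.16 in replicate 1 alone (adjusted p = 0.088). Trpm6, the magnesium channel of absorptive colon and kidney epithelium, was at 618, 597 and 620 in vehicle and 693, 647 and 667 in 4-OHT. The 4-OHT libraries were all higher, yet the log2 fold change of 0.13 did not pass the test (adjusted p = 0.13). Trpv6, an apical calcium channel, was too low to resolve, at 3.73, 8.51 and 10.9 against 20.7, 7.26 and 13.7, with an interval of -0.28 to 1.81.

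A wider list of 96 other genes of the same transport systems, 93 of them with a row, was counted for context. Of the 65 tested, 26 rose, 9 fell and 30 did not pass, which is 53.8% called beside the 43.6% of all rows, and their median log2 fold change was 0.14. At a mean of at least 100 normalized counts 30 of 51 were called, beside 50.5% of all such rows. The chloride genes counted 7 higher and 2 lower of 10, the ENaC and corticosteroid genes 4 higher and 0 lower of 13, and the 7 genes of secretagogue signalling 4 higher and 2 lower. Monocarboxylate genes counted 0 higher and 2 lower of 9. These 2, which were looked up after the counts, were Bsg, the chaperone that brings MCT1 and MCT4 to the membrane (log2 fold change -0.30, adjusted p = 0.00015), and Slc16a6, a ketone body carrier (-0.55, adjusted p = 4.5e-05).

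Of the wider list, 8 genes changed by at least 1 on the log2 scale, and all 8 rose, where 2.01% of all rows rose and 1.53% fell by that much. Car4 and S100g, with vehicle means of 1.59 and 6.46, reached the mean of 10 needed for testing only through the 4-OHT libraries. The direction of these genes is therefore not independent of the filter. With a pseudocount of 10 in place of 1, Guca2a (0.97), S100g (0.94) and Aqp8 (0.91) lay under that limit. Slc9a4, a further sodium-proton exchanger, was at 315, 350 and 278 normalized counts in vehicle and 861, 916 and 858 in 4-OHT (log2 fold change 1.48, SE 0.08, adjusted p = 6.0e-11), while exons of a gene on the other strand cover 21.3% of its exon bases. Chp2, a cofactor that activates sodium-proton exchangers, was at 18.7, 27.0 and 10.9 against 61.0, 57.0 and 61.5 (1.70, SE 0.29, adjusted p = 9.3e-05). With Slc9a2 and Slc9a3r1, these make 4 genes of sodium-proton exchange that rose, while Slc9a8 fell, and the exchanger group of the wider list counted 3 higher and 1 lower of 6. Guca2a and Guca2b encode guanylin and uroguanylin, the peptides that stimulate chloride secretion through the receptor guanylate cyclase C. Guca2b was at 87.2 ± 17.6 in vehicle and 240 ± 17.6 in 4-OHT (SD, n = 3, 1.47, SE 0.15, adjusted p = 1.6e-07), and Guca2a at 156, 214 and 211 against 378, 384 and 396 (1.01, SE 0.12, adjusted p = 7.0e-07). Their receptor gene Gucy2c, looked up afterwards, fell by 0.27 on the log2 scale (adjusted p = 0.00027).

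The other 4 had fewer reads or an uneven group. Clca1, a secreted goblet cell protein that modulates calcium-activated chloride channels, was at 126, 179 and 185 against 311, 306 and 634 (1.28, SE 0.20, adjusted p = 3.2e-05), with 4-OHT replicate 3 highest and 0.93 without it. Of the 7 goblet cell markers 4 rose (Tff3, Agr2, Zg16 and Spdef), Fcgbp fell and 2 did not pass, with sums of 375 to 466 RPM in vehicle and 385 to 418 in 4-OHT, and their part in this rise was not tested. S100g, the calcium-binding protein calbindin-D9k, was at 6.53, 9.22 and 3.63 against 17.6, 20.7 and 26.2 (1.65, SE 0.43, adjusted p = 0.0040). Aqp8, the water channel of surface colonocytes, was at 13.1, 32.6 and 7.26 against 51.7, 18.7 and 53.5, with overlap (1.28, SE 0.45, adjusted p = 0.026). Its call was lost without vehicle replicate 1 (adjusted p = 0.066), vehicle replicate 3 (0.16), 4-OHT replicate 1 (0.093) or 4-OHT replicate 3 (0.12). Car4, a membrane-bound carbonic anhydrase of the colonic surface, had 1, 2 and 2 reads in vehicle and 5, 11 and 44 in 4-OHT (adjusted p = 0.0043). Most of its reads were in 4-OHT replicate 3, and without that library its mean fell below the limit for testing.

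**Figure D4:**
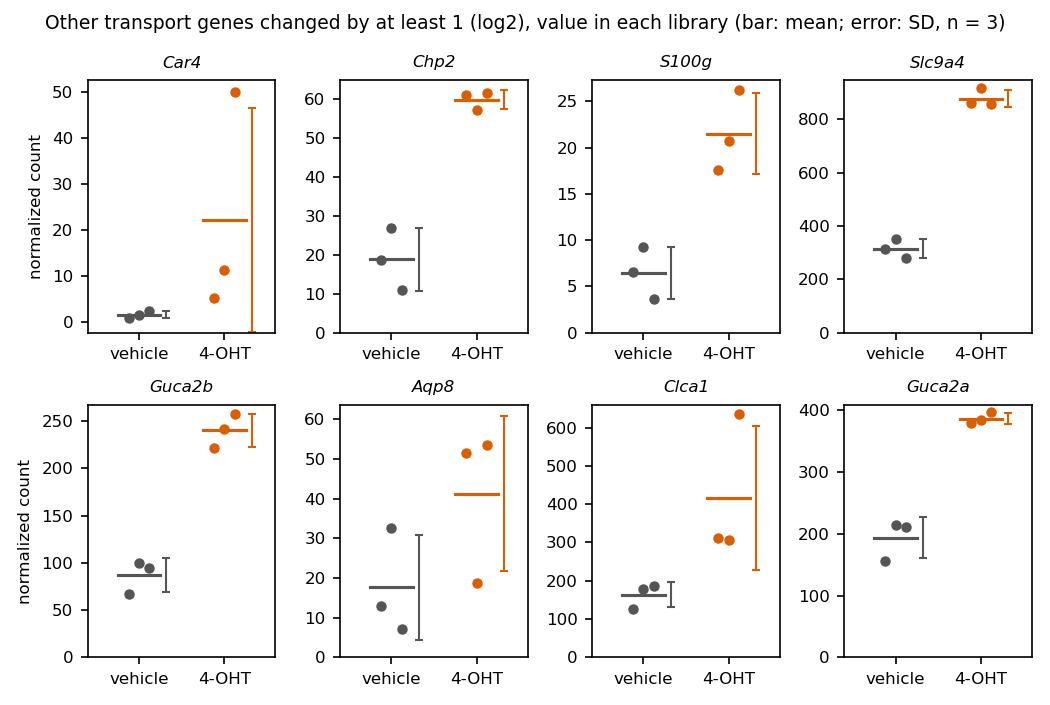
Normalized count in each library of the 8 genes of the wider transport list that changed by at least 1 on the log2 scale, with the mean (bar) and SD (error, n = 3) of vehicle and 4-OHT. The groups are apart for all but Aqp8, whose 4-OHT replicate 2 lies at 18.7 below the highest vehicle library at 32.6, and Car4 rests largely on 4-OHT replicate 3.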

How the data were processed

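Bulk RNA-seq of 6 colonic organoid libraries (3 vehicle, 3 4-OHT) was deposited by the authors as 1 table of normalized counts per gene symbol, a signal that equals whole reads divided by a size factor per library. Whole reads were recovered from the step of each library within 0.1 reads. The submitters' processing notes name STAR, DESeq2 and GRCm39/mm39, without roles or versions, and the counter, annotation and strand setting are not given in the sources used here. Rows with a mean of at least 10 were tested on log2(value + 1) with limma 3.58.1 (trend) in R 4.3.3 with Benjamini-Hochberg adjustment. Fold changes of low genes depend on the added 1 and on the model, in either direction. Slc5a8 was at 1.88, with 1.99 when 0.1 was added, 1.72 in edgeR and 1.77 in DESeq2. Car4 was at 2.64, with 3.20, 3.73 and 3.85 in the same order. Fitted fold changes and intervals are on that scale, and group folds are ratios of means. A 3 against 3 exact permutation test cannot go below 0.1 and was not used. Alternatives were fits of the recovered reads with DESeq2 1.42.0 or with the quasi-likelihood test of edgeR 4.0.16, other pseudocounts, filters and scalings, and fits leaving out libraries. The script was tested on simulated data. Exon lengths came from GENCODE for GRCm38, used by gene name only. Promoters came from RefSeq. The transport genes and lists were chosen with earlier results of these data known. Genes past the threshold by 0.5 (log2), and the largest and smallest other change in each role group, are given by library, and genes of the wider list by a limit of 1.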

Additional observations from a re-analysis of the deposited data

How the results depend on the processing

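Across 16 alternatives and 45 genes, 650 of 708 values stayed on 1 side of 0 and of the test's threshold, 36 lost and 3 gained a call, and 19 reversed. Genes called overall numbered 5765, with 3848 to 5780 over the alternatives and 4946 to 5636 when 1 library was left out. Transport genes called higher numbered 8 to 11 (9 to 11 when 1 library was left out), and those called lower 7 to 12 (9 to 11). The wider list gave 19 to 26 higher and 9 to 12 lower. The lowest counts came from 4-OHT replicate 1 alone against vehicle, with 3848 genes overall and 8 transport genes higher and 7 lower, where only 1 library stands for the group. None of the genes that reversed had passed the threshold, and the cause was not tested. Replicate 1 alone turned Cftr to 0.014, Slc12a2 to 0.054, Slc26a6 to -0.21, Scnn1a to 0.012, Kcnma1 to -0.13 and Nedd4l to -0.0063. Quantile normalization turned Scnn1a to 0.0071, Atp1b1 to -0.043 and Nedd4l to -0.0067, and Nedd4l was at -0.0043 with TMM factors, -0.0098 with edgeR and -0.0078 with DESeq2. With 1 library left out, Cftr ranged from -0.028 to 0.0024, Slc12a2 from -0.053 to 0.030, Slc26a6 from -0.053 to 0.32, Scnn1a from -0.099 to 0.0088 and Nedd4l from -0.042 to 0.033. Slc12a2 was called lower with quantile normalization (-0.14). At a minimum mean of 50 the low genes, Slc9a3, Kcnma1, Slc5a8 and Trpv6 among them, gave no value. The labels do not say whether equal replicate numbers pair the libraries. Same-numbered deviations from the group means correlated at -0.0074, 0.030 and -0.020, which cannot decide whether the samples were paired by design. A fit with the replicate block called 5637 genes overall and changed the call of 1 transport gene, Atp1b3 (adjusted p = 0.067). Depth limits the 6 genes under the filter and those below about 50 normalized counts.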

Other observations

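Carbonic anhydrases of the wider list, looked up after its counts, did not move together. Car1, an abundant cytosolic enzyme of colonocytes, rose from 5170 ± 530 to 9772 ± 1021 normalized counts (SD, n = 3), a log2 fold change of 0.92 (limma adjusted p = 2.6e-09). Car12, a membrane-bound enzyme, fell by 0.55 on the log2 scale, and Car2, a further cytosolic enzyme, was at -0.07 (adjusted p = 0.23). Of the 4 genes that rose in the ENaC group of the wider list, 3 encode proteases that can activate the channel, with log2 fold changes of 0.43 for St14, 0.42 for Furin and 0.29 for Prss8.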
